A study of Mus musculus with 18 samples.

Results

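Lymphoma tissue from mice without Beclin 2 was compared with lymph nodes of wild-type mice, in 2 RNA-seq libraries against 2. The genes described are all those that the authors' deposited table lists for this pair of tissues, which means all with an adjusted p under 0.05. There were 1630 such genes among 22086 tested (7.38%). Of these, 737 were higher in the lymphoma (3.34% of the genes tested) and 893 were lower (4.04%). The median log2 fold change, lymphoma over wild-type node, was 1.06 among the higher genes, -0.87 among the lower ones and -0.45 over the whole list. Genes outside the list have no values here, so a gene not named as listed may have differed by less than the authors' test could call.

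The lymphoma came from Beclin 2 KO mice, and the lymph nodes it was set against came from wild-type mice. A further pair of libraries, from lymph nodes of Beclin 2 KO mice, gives values that stand beside those of the lymphoma where another table lists the same gene. Those tables list 418 of 23565 genes for lymphoma over knockout node (1.77%; 0.700% higher and 1.07% lower), and 105 of 22105 for knockout over wild-type node (0.475%; 0.181% higher and 0.294% lower). All 3 groups were labelled C57BL/6 and unstimulated, and the tissues went into RNA extraction without culture, followed by selection of polyadenylated RNA. They are 6 libraries of a series of 18 samples in 9 groups. The labels give no age or sex, no site of the nodes or the tumours, no lymphoma type, no allele, and no statement that the 2 libraries of a group came from separate animals. The p-values therefore measure the spread between these libraries, which may be technical. Genotype and tissue both differ between the lymphoma and the wild-type node, and their shares in a difference cannot be told apart. In whole tissue, fewer cells of a type and less RNA per cell cannot be told apart either.

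Beclin 2 is a mammalian relative of the autophagy protein Beclin 1 and takes part both in autophagy and in the lysosomal breakdown of certain G protein-coupled receptors. A lymph node holds B cells in follicles, T cells and dendritic cells in the zones between them, macrophages along the sinuses, and a stromal frame with its own blood and lymph vessels. Plasma cells are B lineage cells that have turned their endoplasmic reticulum over to the making of antibody. Becn2 lies on chromosome 1, at chr1:175920329-175922225 in GRCm38, and neither it nor Becn1 was listed, so the files give no value that checks the knockout in these tissues. The label of lymphoma could not be checked either, since none of 6 defining B cell markers was listed and the T cell markers divided into Cd4 higher and Cd8a, Trac and Lck lower. All 6 defining plasma cell markers were listed, all higher.

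Each group mean in the table still holds the whole reads of both of its libraries, and these were solved for every listed gene. The libraries carry no replicate number, so they are called tumour A and tumour B, and wild-type A and wild-type B. Size factors were 1.083 and 1.047 in tumour A and B, and 0.972 and 0.924 in wild-type A and B. The listed genes together held 4321966 and 4397398 reads in tumour A and B, and 3696578 and 3471386 in wild-type A and B, while total reads per library cannot be had from a table of called genes. Levels below are normalised reads per library, that is reads divided by the size factor, and they are not corrected for gene length. In all 1630 genes the tumour libraries lay on one side of the wild-type libraries, which the selection by a significant call brings with it and which adds no support.

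**Figure D1:**
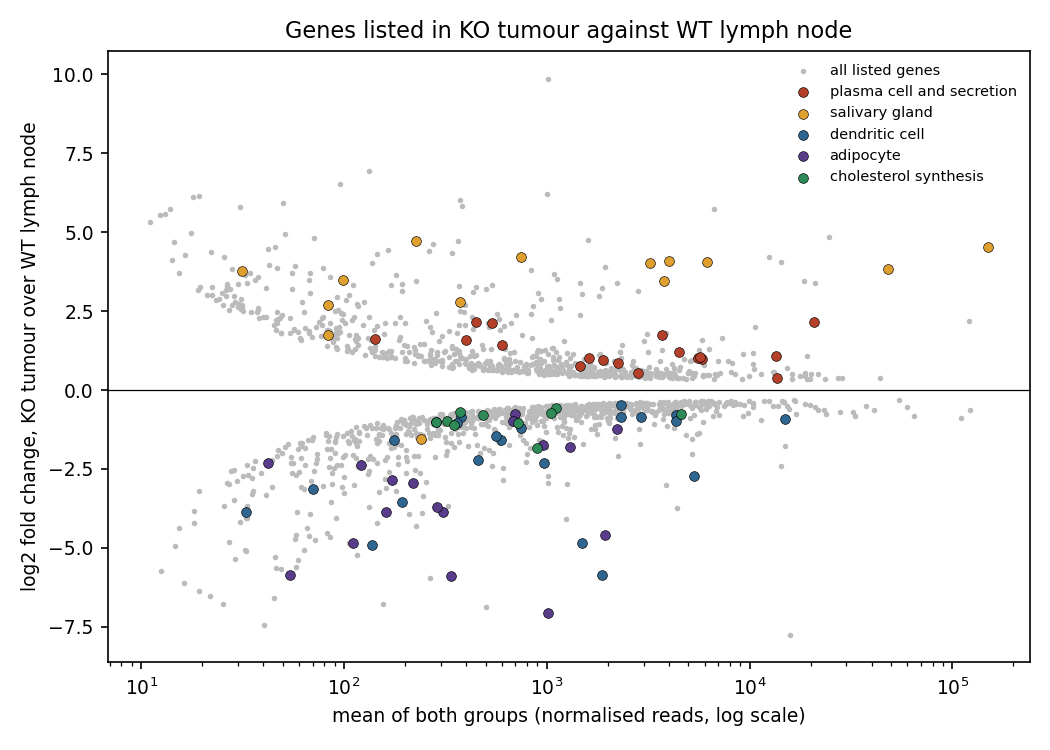
Each point is a listed gene with reads in both groups, by the mean of the 2 group means (log axis, normalised reads) and the log2 fold change of KO tumour over WT lymph node. Points of the plasma cell and secretion list and nearly all of the salivary gland list lie above 0, and those of the dendritic cell, adipocyte and cholesterol synthesis lists lie below it; the gap around 0 is where genes were not called.

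The machinery of antibody secretion was higher in the lymphoma. Of 24 genes typical of plasma cells, 18 were listed (75.0%, against 7.38% of all genes tested), all 18 higher, with a median log2 fold change of 1.07 against -0.45 over all listed genes. Mzb1, an endoplasmic reticulum protein that helps assemble antibody, had 5894 and 5568 normalised reads in tumour A and B, against 1690 and 1692 in wild-type A and B. The tumour pair was 1.76 higher on the log2 scale, with an adjusted p of 1.77e-38 in the authors' deposited table. Derl3, part of the channel that clears misfolded proteins, had 829 and 922 normalised reads in the tumours and 233 and 167 in the wild-type nodes. Igj, the chain that joins antibody into polymers, had 35703 and 32111 in the tumours and 8651 and 6597 in the wild-type nodes. The fold changes of these were 2.13 and 2.15 on the log2 scale, and in each the lower tumour library stood at more than 3 times the higher wild-type library. Igj was also 1.43 higher in knockout over wild-type nodes, normalised separately, where Mzb1 and Derl3 were not listed. In lymphoma over knockout nodes Mzb1, Derl3 and Igj were 1.03, 1.48 and 0.74 higher.

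The regulators of the plasma cell state moved the same way. Prdm1, which encodes the repressor Blimp-1 that ends the B cell programme, had 561 and 645 normalised reads in the tumours and 213 and 188 in the wild-type nodes (log2 fold change 1.59, adjusted p 2.21e-09 in the authors' deposited table). Xbp1, the transcription factor that enlarges the secretory pathway, had 5897 and 6688 in the tumours and 2785 and 2643 in the wild-type nodes. Irf4, needed for plasma cells to form, had 2470 and 3306 in the tumours and 1441 and 1743 in the wild-type nodes, which is the weakest of these calls (log2 fold change 0.86, adjusted p 0.0433 in the authors' deposited table). Sdc1, the surface proteoglycan CD138 by which plasma cells are sorted, was 1.44 higher on the log2 scale. Eaf2, an elongation factor of the germinal centre and plasma cell stages, was 2.17 higher, or 1.75 to 2.76 with 1 library left out.

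The folding and transport line behind secretion followed. Hsp90b1, the chaperone GRP94, had 17161 and 19362 normalised reads in the tumours and 8520 and 8849 in the wild-type nodes. Hspa5, the chaperone BiP, had 14661 and 16360 in the tumours and 11632 and 12095 in the wild-type nodes, so that its fold of 1.31 was well under that of Hsp90b1 (2.10). Txndc5 and Pdia4, which form disulphide bonds, were 1.06 and 0.98 higher on the log2 scale. A list of translocon, coat and quality control genes, chosen after the values were seen, had 22 of 59 members listed, all 22 higher, with a median log2 fold change of 0.75. Among them Rrbp1, which holds ribosomes on the membrane, was 0.96 higher on the log2 scale, and the translocon subunits Sec61g and Sec61a1 were 1.09 and 0.55 higher. Fam46c, a poly(A) polymerase that lengthens antibody messages, had 4646 and 5031 normalised reads in the tumours against 1387 and 1438 in the wild-type nodes.

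Genes of salivary gland were higher in the same tumour libraries, and their values stand here because acinar cells of that gland also run a large secretory pathway. Of 37 salivary genes 15 were listed (40.5%, against 7.38% of all genes tested), 14 higher and 1, Tesc, lower. Their summed level was 239012 and 586244 normalised reads in tumour A and B, against 11986 and 31190 in wild-type A and B. Bhlha15, the factor Mist1 that acinar and plasma cells share, had 560 and 740 in the tumours and 63.8 and 122 in the wild-type nodes. Of 7 defining salivary markers 5 were listed and none of the 5 was at 0 in the wild-type nodes. The part of the salivary genes in the rise of the secretory genes was not tested. The median log2 ratio of tumour B over tumour A was 0.84 for the salivary list, 0.09 for the plasma cell list and 0.03 for the transport list.

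The promoters of these genes were searched for the sequence by which endoplasmic reticulum stress factors are known to bind. The endoplasmic reticulum stress response element, CCAAT and CCACG with a spacer of 9 bases, was searched on either strand and was found in the 250 bases before the start of 0.130% of 27025 genes in the RefSeq table for GRCm38.p6. It was found in 6 of 490 promoters of higher genes (1.22%) and in 0 of 667 promoters of lower genes. Of 16 plasma cell list members that have a promoter there, 4 held it, against 0 of 18 of the translocon and transport list, and these 4 are shown because they rose together. The other 2 belong to Hnrnpa3 and Xlr3a. Capitals mark the element, in the gene's own direction, so that matches on the other strand begin with its reversed complement.
Derl3, chr10:75893217-75893285, + strand: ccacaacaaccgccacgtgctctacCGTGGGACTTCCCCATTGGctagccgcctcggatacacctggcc
Hsp90b1, chr10:86705613-86705681, - strand: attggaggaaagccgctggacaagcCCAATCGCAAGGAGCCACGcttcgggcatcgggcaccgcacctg
Creld2, chr15:88819495-88819563, + strand: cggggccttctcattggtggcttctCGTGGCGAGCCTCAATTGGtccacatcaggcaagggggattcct
Hspa5, chr2:34772000-34772068, + strand: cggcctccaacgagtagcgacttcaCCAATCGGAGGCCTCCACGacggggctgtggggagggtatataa
The Hspa5 element ends 47 bases before the start of the gene and the Derl3 element 138 bases before it, and the promoter of Hsp90b1 holds 2 matches. Among the 4 the log2 fold change ran between 0.39 for Hspa5 and 2.13 for Derl3, and Creld2, a chaperone of the stress response, had 2108 and 2176 normalised reads in the tumours against 1039 and 1107 in the wild-type nodes. This was 1 of 8 elements searched, all chosen after the values were seen. The unfolded protein response element was found in 0.603% of all promoters, in 6 of 490 of higher genes and in 4 of 667 of lower genes. It was found in 3 of 18 promoters of the translocon and transport list and in 1 of 16 of the plasma cell list. For a second endoplasmic reticulum stress response element these counts were 1 of 18 and 0 of 16, with 1 of 490 among higher genes and 0 of 667 among lower genes. The sterol, E2F and interferon elements and the E-box (CACGTG) were found in 1.63%, 1.22%, 4.29% and 8.78% of promoters of higher genes and in 1.35%, 1.35%, 4.65% and 9.45% of promoters of lower genes. A match describes the letters in this window and shows no binding.

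**Figure D2:**
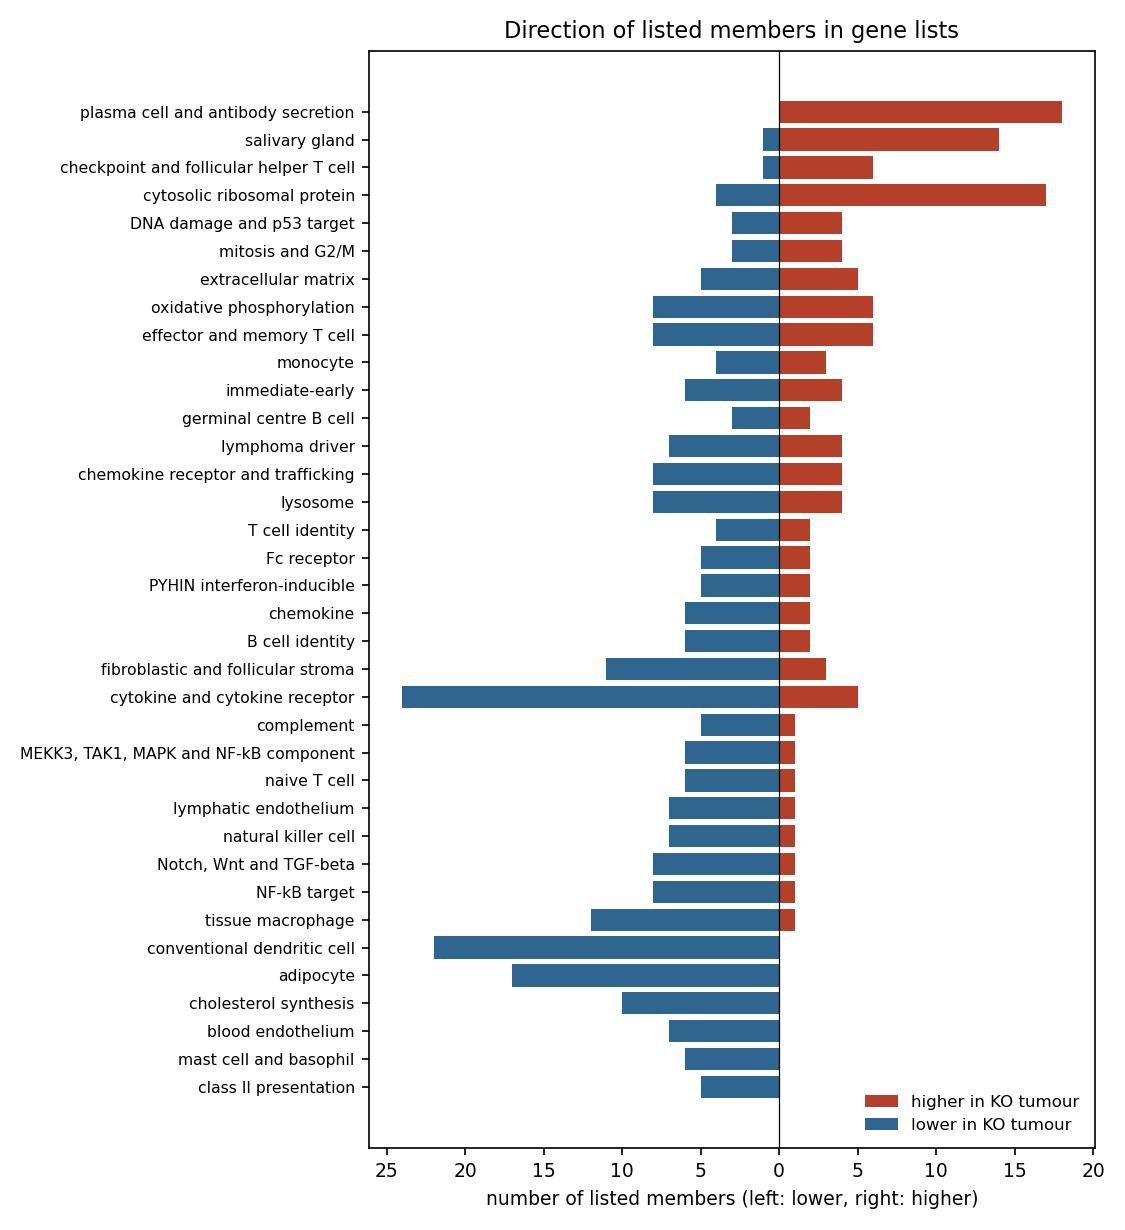
Bars give the number of listed members of each gene list with at least 5 of them, higher in KO tumour to the right and lower to the left of 0. All 18 plasma cell members point right, and all 22 dendritic cell, 17 adipocyte and 10 cholesterol synthesis members point left.

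Antibody genes themselves rose with the secretory line. Igkc, the kappa constant region, had 211383 and 185101 normalised reads in tumour A and B and 45560 and 40866 in wild-type A and B (log2 fold change 2.20, adjusted p 1.77e-36 in the authors' deposited table). All 3 heavy chain constant regions listed were IgG subclasses and all were higher. Ighg3 had 25887 and 21263 normalised reads in the tumours and 1027 and 1516 in the wild-type nodes, an 18.5-fold difference. Ighg2b had 35042 and 41595 in the tumours and 3182 and 4140 in the wild-type nodes, a 10.5-fold difference. Ighg2c had 28279 and 39421 in the tumours and 1550 and 4678 in the wild-type nodes, 3.44 higher on the log2 scale, or 2.86 to 4.45 with 1 library left out. The IgG subclass gene Ighg1 and the constant regions of IgM, IgD, IgA and IgE were not listed. In knockout over wild-type nodes, normalised separately, Igkc, Ighg2b and Ighg2c were higher too, at 1.2, 1.69 and 1.6 on the log2 scale. Ighg3 was not listed there. In lymphoma over knockout nodes Igkc, Ighg2b, Ighg2c and Ighg3 were 1.01, 1.71, 1.86 and 1.45 higher. Subclass genes and variable segments are close copies of one another, so the share of reads that each one received is uncertain.

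Variable segments split by chain. All 39 kappa variable segments listed were higher, with a median log2 fold change of 2.61, and their sum was 76638 and 72369 normalised reads in the tumours, against 9376 and 9367 in the wild-type nodes. The smallest adjusted p belonged to Igkv3-4, with 4067 and 4076 in the tumours and 508 and 266 in the wild-type nodes (2.58e-103 in the authors' deposited table). All 3 lambda variable segments listed were higher too. The 41 heavy variable segments divided into 20 higher and 21 lower, and their sum was 9565 and 12390 in the tumours and 3630 and 4062 in the wild-type nodes. The highest finite fold change of the whole list was that of Ighv1-14, with 867 and 3419 reads in tumour A and B and 0 and 4 in wild-type A and B. Its log2 fold change was 9.87, 8.53 without tumour B, 10.56 without tumour A, and without a finite value when wild-type B, which held the only wild-type reads, was left out, and tumour B stood 2.03 above tumour A. Ighv1-14 was also 7.4 higher on the log2 scale in knockout over wild-type nodes, normalised separately.

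Several of the heavy segments that were lower had few reads in the tumours, while others fell less, such as Ighv1-26 at -1.50 and Ighv1-82 at -2.10 on the log2 scale. Ighv1-80 had 15 and 0 reads in the tumours and 165 and 137 in the wild-type nodes, and Ighv1-81 had 4 and 1 in the tumours and 116 and 100 in the wild-type nodes. Their log2 fold changes were -4.52 and -5.61, and with 1 library left out Ighv1-81 ran from -6.90 to -4.95. Ighv1-80 stood at -3.52 without tumour B and had no reads left, and so no finite value, without tumour A. Ighv1-39 had 1 read in each tumour library and 83 and 87 in the wild-type nodes, a log2 ratio of summed reads of -6.58 with an exact 95% interval of -9.63 to -4.70 for counting error only. In the lymph nodes of Beclin 2 KO mice the reads of Ighv1-80 and Ighv1-39 were at 0 in both libraries, in a separately normalised table that shares the wild-type libraries. The 3 T cell receptor alpha variable segments listed were higher, while the alpha constant region Trac was lower, with 2082 and 2194 normalised reads in the tumours and 3168 and 3812 in the wild-type nodes.

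**Figure D3:**
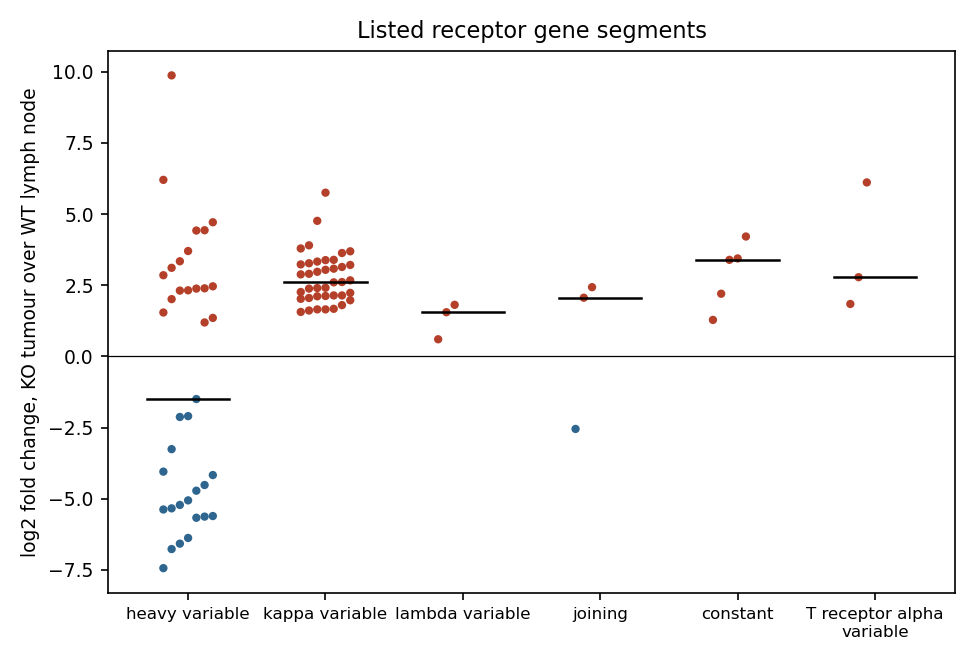
Log2 fold change of KO tumour over WT lymph node for each listed receptor gene segment with reads in both groups, by class; black lines are medians. Kappa variable points all lie above 0, and heavy variable points fall on both sides of it.

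The defining markers not listed included Ms4a1, Cd79a, Cd79b, Pax5 and Cd22. Of 28 genes of mature and follicular B cells 7 were listed, with Cr2 present as 2 gene models, which makes 8 rows (28.6%, against 7.38% of all genes tested). Of the 8 rows 6 were lower and 2, Cd72 and Blk, were higher. Cr2, the complement receptor CD21 of follicular B cells and follicular dendritic cells, had 3061 and 3257 normalised reads in the tumours and 8110 and 8138 in the wild-type nodes for its larger model. Fcer2a, the IgE receptor CD23 of follicular B cells, had 3321 and 2801 in the tumours and 8530 and 7462 in the wild-type nodes. Cd72, an inhibitory coreceptor, had 4077 and 4486 in the tumours and 2856 and 3011 in the wild-type nodes. The log2 fold changes of these were -1.36, -1.39 and 0.55. Vpreb3, a chaperone of the B cell receptor, had 294 and 139 in the tumours and 506 and 488 in the wild-type nodes, and its log2 fold change ran from -1.83 to -0.76 with 1 library left out.

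Class II antigen presentation fell in all 5 listed, out of 11 genes (45.5% listed, against 7.38% of all genes tested). Cd74, the invariant chain, had 94176 and 60029 normalised reads in the tumours and 145435 and 140343 in the wild-type nodes. H2-Aa, a class II alpha chain, had 36688 and 27775 in the tumours and 52827 and 47880 in the wild-type nodes. H2-DMa and H2-DMb2, which load peptide onto class II, had log2 fold changes of -0.85 and -0.67. In each of these genes tumour B was the lowest of the 4 libraries. Of 18 germinal centre genes 5 were listed and they divided: Bcl6, the repressor that defines the germinal centre, had 987 and 914 in the tumours and 1901 and 1779 in the wild-type nodes, Basp1 and Lmo2 were lower as well, and Bcl7a and Eaf2 were higher.

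Of 23 T cell identity genes 6 were listed (26.1%, against 7.38% of all genes tested), 4 lower and 2 higher. The defining markers Cd3e and Cd3d were not listed. Cd8a, the coreceptor of cytotoxic T cells, had 2827 and 3109 normalised reads in the tumours and 4632 and 5272 in the wild-type nodes. Cd4, the coreceptor of helper T cells, had 4826 and 4895 in the tumours and 3360 and 3887 in the wild-type nodes. The coreceptors thus moved apart, Cd8a at -0.74 and Cd4 at 0.42 on the log2 scale. Cd28, the main costimulatory receptor, had 2514 and 3114 in the tumours against 1503 and 1495 in the wild-type nodes.

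Naive T cell genes fell with a single exception. Of 16 such genes 7 were listed (43.8%, against 7.38% of all genes tested), 6 lower. Ccr7, the receptor that draws naive T cells and migratory dendritic cells into the node, had 3446 and 2910 normalised reads in the tumours and 5620 and 5431 in the wild-type nodes. Klf2, which keeps naive T cells circulating, had 4034 and 3066 in the tumours and 6273 and 6958 in the wild-type nodes. Il7r, the receptor for the survival cytokine IL-7, went the other way, with 7658 and 9815 in the tumours and 2746 and 3133 in the wild-type nodes (log2 fold change 1.57, adjusted p 1.44e-06 in the authors' deposited table). Among chemokine receptors Cxcr4, which retains cells near CXCL12, rose to 4346 and 4434 in the tumours, against 1917 and 1928 in the wild-type nodes.

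Of 25 effector and memory T cell genes 14 were listed (56.0%, against 7.38% of all genes tested), 6 higher and 8 lower. Their median log2 fold change was -0.65. The falls included Id2 at -1.37 and Ccr2 at -1.02, beside Ccl5, Ctsw, S100a4 and Nkg7, while the steepest rise was that of a granzyme. Gzmk, a granzyme of memory-type CD8 T cells, had 670 and 829 normalised reads in the tumours and 11.3 and 15.2 in the wild-type nodes. That is a log2 fold change of 5.82, with an adjusted p of 4.19e-43 in the authors' deposited table, and the tumour libraries differed by 0.31. In the table of lymphoma over lymph nodes of Beclin 2 KO mice, which shares the tumour libraries, Gzmk was 2.80 higher, with 66.0 and 156 in the knockout nodes. Gzma, the granzyme of natural killer and cytotoxic cells, was lower in contrast, with 126 and 132 in the tumours and 264 and 290 in the wild-type nodes. Cxcr3, the receptor for interferon-induced chemokines, and Tbx21, its T-bet regulator, were 1.08 and 1.10 higher on the log2 scale, and Cxcr6, a receptor of resident lymphocytes, fell by 1.73.

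Of 19 checkpoint and follicular helper T cell genes 7 were listed (36.8%, against 7.38% of all genes tested), 6 higher and Bcl6 lower. Pdcd1, the inhibitory receptor PD-1, had 740 and 652 normalised reads in the tumours and 238 and 283 in the wild-type nodes (log2 fold change 1.42). Tigit, another inhibitory receptor, had 634 and 565 in the tumours and 229 and 277 in the wild-type nodes. Il21, the cytokine by which helper T cells drive B cells towards plasma cells, had 141 and 158 in the tumours and 57.6 and 57.4 in the wild-type nodes. Slamf6, Btla and Entpd1 were 1.02, 0.57 and 0.99 higher on the log2 scale. In all of these the tumour libraries lay within 0.33 of each other on that scale.

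Natural killer genes were lower in 7 of the 8 listed, out of 22 (36.4% listed, against 7.38% of all genes tested). Ncr1, the natural killer receptor NKp46, had 20 and 32 reads in the tumours and 172 and 114 in the wild-type nodes. Klrb1c, the receptor NK1.1, had 55.4 and 43.9 normalised reads in the tumours and 273 and 183 in the wild-type nodes. Klra1, an inhibitory Ly49 receptor, had 10.2 and 6.7 in the tumours and 159 and 95.3 in the wild-type nodes. In knockout over wild-type nodes, normalised separately, Klra1 was lower too, with a log2 fold change of -3.35. The exception was Eomes, a T-box factor of natural killer and memory T cells, which was 0.53 higher on the log2 scale.

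**Figure D4:**
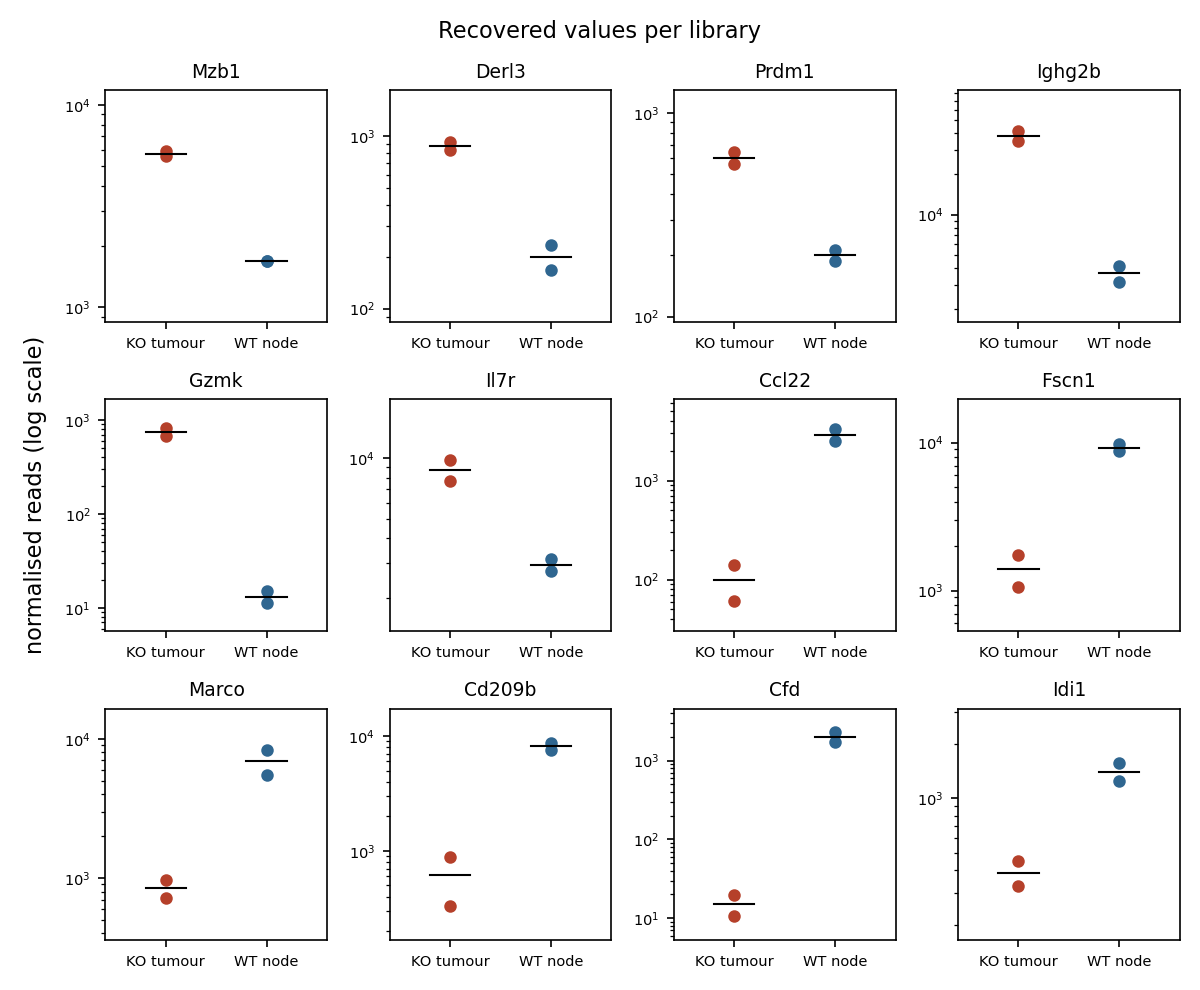
Normalised reads (log axes) of 12 genes in each of the 2 KO tumour libraries (left) and the 2 WT lymph node libraries (right), with the group mean as a line. Mzb1, Derl3, Prdm1, Ighg2b, Gzmk and Il7r are higher in both tumour libraries, and Ccl22, Fscn1, Marco, Cd209b, Cfd and Idi1 are lower in both.

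Dendritic cell genes fell throughout. Of 30 genes of conventional dendritic cells 22 were listed (73.3%, against 7.38% of all genes tested), all 22 lower, with a median log2 fold change of -1.52. Fscn1, the actin bundler of mature migratory dendritic cells, had 1737 and 1064 normalised reads in the tumours and 9781 and 8739 in the wild-type nodes (log2 fold change -2.73, adjusted p 2.11e-48 in the authors' deposited table). Ccl22, a chemokine that these cells make to attract regulatory T cells, had 139 and 60.2 in the tumours and 3292 and 2501 in the wild-type nodes. Apol7c, an apolipoprotein L of dendritic cells, had 118 and 6.7 in the tumours and 4346 and 2980 in the wild-type nodes. Ccl22 had a log2 fold change of -4.86, with a range of -5.59 to -4.38 when 1 library was left out, and Apol7c one of -5.87, with a range of -9.10 to -4.95.

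Both main branches of dendritic cells took part. Xcr1 and Clec9a, receptors of the cross-presenting branch, had 172 and 206, and 211 and 261, normalised reads in the tumours, against 334 and 432, and 561 and 415, in the wild-type nodes. Clec10a and Mgl2, lectins of the other conventional branch that macrophages share, had log2 fold changes of -2.22 and -3.13. Flt3, the growth factor receptor of all dendritic cells, had 561 and 345 in the tumours and 1019 and 1070 in the wild-type nodes. Zbtb46 and Batf3, transcription factors of these cells, stood at -0.84 and -1.59. Siglech, a receptor of plasmacytoid dendritic cells, had 203 and 94.5 in the tumours and 1093 and 1051 in the wild-type nodes, a log2 fold change of -2.85 with a range of -3.50 to -2.40 when 1 library was left out. The falls in late maturation genes (Ccl22, Apol7c, Fscn1) were larger than those in Xcr1, Clec9a and Zbtb46, although this difference itself was not tested.

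Macrophage genes fell in 12 of 13 listed, out of 33 (39.4% listed, against 7.38% of all genes tested), and the lectins of the sinuses fell furthest among them. Of 5 defining macrophage markers only Emr1 and Marco were listed, both lower, and Csf1r, Siglec1 and Cd68 were not. Marco, a scavenger receptor of medullary macrophages, had 716 and 976 normalised reads in the tumours and 8261 and 5503 in the wild-type nodes, a log2 fold change of -3.02. Cd209b, the lectin SIGN-R1 of sinus macrophages, had 889 and 334 in the tumours and 8676 and 7618 in the wild-type nodes (log2 fold change -3.74, adjusted p 3.93e-60 in the authors' deposited table, range -4.61 to -3.20 with 1 library left out). Of the 7 genes of its family, a list chosen after the values were seen, 6 were listed and all 6 were lower, with a median log2 fold change of -4.13. Cd209e had 5 and 1 reads in the tumours and 429 and 162 in the wild-type nodes (log2 fold change -6.79, range -8.33 to -5.98), and tumour B was the lower of the tumour libraries in each of the 6. These genes lie close together and resemble each other, so reads may have been divided between them. Mrc1, the mannose receptor, had 332 and 295 in the tumours and 1327 and 1242 in the wild-type nodes, and Apoe, which macrophages secrete, was the exception at 0.38 higher.

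Other myeloid cells gave a mixed picture. Of 24 neutrophil genes only Mmp9, a gelatinase, was listed, with 36.0 and 16.2 normalised reads in the tumours and 170 and 179 in the wild-type nodes (log2 fold change -2.74, range -3.42 to -2.27 with 1 library left out). Monocyte genes divided, with 7 of 19 listed (36.8%, against 7.38% of all genes tested), 3 higher and 4 lower. Fcgr4, an activating Fc receptor of monocytes, was higher, with 409 and 296 in the tumours and 13.4 and 55.2 in the wild-type nodes (log2 fold change 3.36, range 2.67 to 4.72). In knockout over wild-type nodes, normalised separately, Fcgr4 was 3.49 higher on the log2 scale. The 4 lower monocyte genes were Lyz2, F13a1, Ccr2 and Fn1. Of 16 mast cell genes 6 were listed (37.5%, against 7.38% of all genes tested), all lower, and the tumour libraries were far apart. The protease Mcpt4 had 102 and 0 reads in tumour A and B and 603 and 545 in wild-type A and B, and the tryptase Tpsb2 had 60 and 2 in tumour A and B and 247 and 264 in wild-type A and B. The log2 fold change of Tpsb2 was -3.24 on both tumour libraries together, -2.28 without tumour B and -7.14 without tumour A, and that of Mcpt4 was -3.68 on both, -2.68 without tumour B and without a finite value when tumour A was left out.

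The vessels and the follicular frame of the node were lower as well. Of 34 blood endothelium genes 7 were listed (20.6%), all lower, and of 21 lymphatic genes 8 were listed (38.1%), 7 of them lower. The share of all genes tested was 7.38%. Of 3 defining lymphatic markers only Prox1 was listed, and it was lower. Madcam1, the addressin of high endothelial venules in mucosal nodes and of follicular stroma, had 58.2 and 61.1 normalised reads in the tumours and 528 and 367 in the wild-type nodes, a log2 fold change of -2.91. Nkx2-3, the homeobox factor known to be needed for Madcam1 in endothelium, had 0 reads in both tumour libraries and 19 and 35 in the wild-type nodes, which is at least 20.4-fold lower against a floor of 3 reads over the group. It is named because of Madcam1, after its values were seen, and the labels do not say from which sites the nodes and tumours came. Cldn5, the tight junction protein of endothelium, had 427 and 296 in the tumours and 1506 and 1083 in the wild-type nodes.

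Against 32 stromal genes 14 gene models were listed, 11 of them lower. Both models of Cr2 are counted in this share, which was 43.8%, against 7.38% of all genes tested. Cr2 stands in the B cell list as well, and Madcam1 in both vessel lists, so the counts of lower genes in these lists are not separate. Cxcl13, the chemokine that gathers B cells into follicles, had 1484 and 1190 normalised reads in the tumours and 4511 and 4316 in the wild-type nodes (log2 fold change -1.72, adjusted p 3.39e-34 in the authors' deposited table). Tnfsf11, the cytokine RANKL of marginal reticular cells, had 164 and 120 in the tumours and 459 and 315 in the wild-type nodes. Il33, an alarmin of reticular cells, fell by 1.10 on the log2 scale. The 3 that rose were the fibroblast genes Dpt, Pi16 and Grem1, with Pi16 at 1.64, or 1.03 to 2.71 with 1 library left out. None of 7 defining stromal markers, Col1a1 and Pdpn among them, was listed. Of 54 matrix genes 10 were listed (18.5%), 5 higher and 5 lower. Postn, a matrix protein of activated fibroblasts, had 293 and 270 in the tumours and 2721 and 1763 in the wild-type nodes, while Thbs1, Bgn and Hspg2 were 0.91, 0.55 and 0.70 higher on the log2 scale.

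Fat cell genes had the lowest median of all lists with more than 10 listed members. Of 30 adipocyte genes 17 were listed (56.7%, against 7.38% of all genes tested), all lower, with a median log2 fold change of -2.95. Cfd, the adipocyte protease adipsin, had 19.4 and 10.5 normalised reads in the tumours and 2286 and 1733 in the wild-type nodes (log2 fold change -7.07, adjusted p 2.92e-36 in the authors' deposited table). Adipoq, the hormone adiponectin, had 74.8 and 4.8 in the tumours and 712 and 435 in the wild-type nodes. Car3, a carbonic anhydrase abundant in fat, had 282 and 25.8 in the tumours and 3932 and 3516 in the wild-type nodes. With 1 library left out the log2 fold change of Adipoq ran from -6.91 to -2.94 around -3.85, and that of Car3 from -7.17 to -3.72 around -4.60. In knockout over wild-type nodes, normalised separately, Cfd, Pck1, Car3 and Cidec were lower too, at -4.27, -3.0, -1.86 and -1.62. In lymphoma over knockout nodes Cfd, Car3, Cidec, Adipoq and Cd36 were lower, at -2.79, -2.73, -2.06, -2.5 and -1.27. The adipocyte list was lower in tumour B than in tumour A, with a median log2 ratio of -1.25, the reverse of the salivary list.

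Salivary gland genes rose with a median log2 fold change of 3.82 and included some of the highest levels of all. Bpifa2, a secreted protein of the parotid gland, had 154270 and 419488 normalised reads in tumour A and B and 5670 and 19143 in wild-type A and B. It made up 3.87% and 9.99% of the reads of all listed genes in tumour A and B, and 0.15% and 0.51% in wild-type A and B. The log2 fold change was 4.53, with an adjusted p of 0.0466 in the authors' deposited table and a range of 3.64 to 5.66 when 1 library was left out. Amy1, the salivary amylase, had 59617 and 121123 in the tumours and 4190 and 8624 in the wild-type nodes, and its log2 fold change of 3.82 ran from 3.22 to 4.43 with 1 library left out. Prb1, a proline-rich protein of saliva, had 318 and 552 in the tumours and 15.4 and 17.3 in the wild-type nodes. In lymph nodes of Beclin 2 KO mice Bpifa2 had 4482 and 228 normalised reads in the 2 libraries and Amy1 had 2417 and 168, so these genes had reads in every lymph node library, and unevenly so. Bpifb1, of the same list, had 0 reads in both wild-type libraries. Secretoglobin genes outside that gland list behaved differently between the tumours, with Scgb2b27 at 566 and 488 in tumour A and B and 11.3 and 31.4 in the wild-type nodes, and tumour B the lower of the tumours. Its log2 fold change was 4.62, or 4.07 to 5.54 with 1 library left out.

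**Figure D5:**
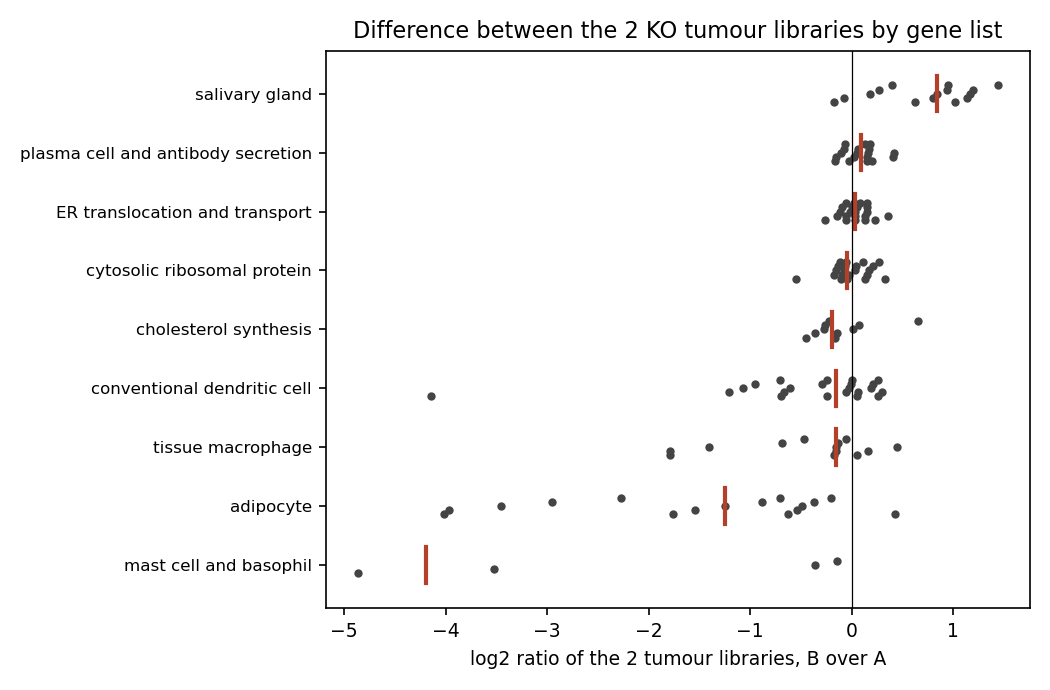
Each point is the log2 ratio of tumour library B over tumour library A for a listed member of a gene list, and the red line is the list median; members with 0 reads in a tumour library are not drawn but count in the median. Salivary genes lie mostly above 0 (median 0.84), plasma cell genes near it (0.09), and adipocyte and mast cell genes below it (-1.25 and -4.19).

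Of 20 cholesterol synthesis genes 10 were listed, all lower (7.38% of all genes tested were listed), with a median log2 fold change of -0.87. Srebf2, the transcription factor that switches the pathway on, had 3840 and 3001 normalised reads in the tumours and 5517 and 5972 in the wild-type nodes. Idi1, an isomerase of the pathway, had 447 and 328 in the tumours and 1562 and 1239 in the wild-type nodes, and its log2 fold change of -1.85 was the lowest of the 10. Hmgcs1, a synthase early in the pathway, had a log2 fold change of -0.72, and Sqle, the squalene oxidase, one of -0.97.

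Ribosomal protein genes rose in 17 of 21 listed, where 45.2% of all listed genes were higher, with a median log2 fold change of 0.52. They were found by name among the listed genes, so no share of genes tested can be set beside the 7.38%. Rpl37 had 12309 and 13298 normalised reads in the tumours and 5876 and 5765 in the wild-type nodes, and Rpl38 had 8177 and 9875 in the tumours and 3660 and 3640 in the wild-type nodes. The 4 lower were Rpsa, Rplp0, Rps10 and Rps4l, and Rpsa had 51393 and 46305 in the tumours and 74100 and 66978 in the wild-type nodes. Ribosomal protein genes have many processed copies in the genome, and how reads were divided among them is not given in the sources used here. No mitochondrial ribosomal protein gene was listed, and of 42 ribosome biogenesis and MYC target genes 2 were listed, Odc1 and C1qbp, both lower.

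The actin cytoskeleton, in a list chosen after the values were seen, had 34 of 54 genes listed, 32 of them lower, with a median log2 fold change of -0.54. Actb had 108962 and 82978 normalised reads in the tumours and 145257 and 151111 in the wild-type nodes. Tmsb4x, the actin-sequestering thymosin, had 49804 and 44635 in the tumours and 88388 and 77391 in the wild-type nodes. The falls were modest and even, and Vim, an intermediate filament gene placed with them, fell by 0.95 on the log2 scale. Rhob, a small GTPase, was among the 2 that rose.

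The NF-kB and MAPK pathways were examined because Beclin 2 has been linked to the kinases MEKK3 and TAK1 in myeloid cells. Of 47 components 7 were listed, 14.9% against 7.38% of all genes tested, with 6 lower and 1 higher. Mapk3, the kinase ERK1, had 878 and 743 normalised reads in the tumours and 1637 and 1602 in the wild-type nodes (adjusted p 4.24e-08 in the authors' deposited table). Relb, Nfkb2 and Rela, subunits of NF-kB, had log2 fold changes of -0.85, -0.64 and -0.47. Traf3 and Mapk7 were lower too, and Map3k5, the stress kinase ASK1, was the one that rose, by 0.45. No gene of MEKK3 (Map3k3) or TAK1 (Map3k7) itself was listed.

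Targets of NF-kB were lower in 8 of 9 listed, out of 34 (26.5% listed, against 7.38% of all genes tested). Relb and Nfkb2 stand both in this list and in that of the components, so the counts of lower genes in these lists are not separate. Nfkbia, the inhibitor that NF-kB induces, had 4491 and 3959 normalised reads in the tumours and 6265 and 5787 in the wild-type nodes. Tnf had 106 and 148 in the tumours and 293 and 233 in the wild-type nodes. Ltb, the lymphotoxin chain that maintains node stroma, had 8670 and 6012 in the tumours and 12326 and 12094 in the wild-type nodes. Ccl3, a chemokine of activated lymphocytes, was the exception, with 34.2 and 58.2 in the tumours and 5.1 and 10.8 in the wild-type nodes, and its log2 fold change of 2.53 ran from 2.09 to 3.17 with 1 library left out. Ccl5 and Relb also belong to the dendritic cell list, whose listed members were all lower, and the part of dendritic cells in this fall was not tested.

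The 10-base kappa B element that is printed in capitals for Nfkb2, searched on both strands of the same 250 bases, was found in 0.159% of all promoters, in 5 of 667 promoters of lower genes (0.750%) and in 0 of 490 promoters of higher genes. The windows of all 5 lower genes are shown, with the element in capitals in the gene's own direction and its reversed complement where it lies on the other strand.
Nfkb2, chr19:46305680-46305739, + strand: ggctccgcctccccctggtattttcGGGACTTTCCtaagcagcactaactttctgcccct
Ltb, chr17:35194395-35194454, + strand: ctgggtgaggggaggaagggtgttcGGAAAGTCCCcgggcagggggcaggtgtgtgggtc
Madcam1, chr10:79664464-79664523, + strand: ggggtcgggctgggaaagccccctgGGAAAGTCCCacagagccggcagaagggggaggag
Csf1, chr3:107760589-107760648, - strand: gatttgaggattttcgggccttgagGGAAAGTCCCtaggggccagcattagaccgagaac
Ifngr2, chr16:91546959-91547018, + strand: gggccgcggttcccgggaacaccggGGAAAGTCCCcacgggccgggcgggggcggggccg
These genes encode a subunit of NF-kB, a lymphotoxin, an addressin, the macrophage growth factor M-CSF and a chain of the interferon gamma receptor. Their log2 fold changes were -0.64, -0.73, -2.91, -0.57 and -0.46. NF-kB is known to accept other forms of the element, which were not searched.

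Of 29 cytokine and cytokine receptor genes listed, 24 were lower, where 54.8% of all listed genes were lower. The list was drawn from gene names within the table, so it has no share of genes tested to set beside the 7.38%. Il22ra2, a soluble receptor that neutralises IL-22 and that dendritic cells make, had 225 and 308 normalised reads in the tumours and 1839 and 1698 in the wild-type nodes (log2 fold change -2.73, adjusted p 4.1e-49 in the authors' deposited table). Il13 had 0 reads in both tumour libraries and 21 and 26 in the wild-type nodes, which is at least 17.7-fold lower. The 5 that rose were Il7r, Il21, Tnfsf8, Tnfrsf14 and Tnfrsf26. Tnfrsf14, the ligand of Btla and a gene often lost in follicular lymphoma of humans, had 806 and 959 in the tumours and 326 and 388 in the wild-type nodes.

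Cell cycle genes gave little. Of 57 replication genes 1 was listed, Tk1, and of 74 mitosis genes 7 were listed, 4 higher and 3 lower, near the 7.38% of all genes tested. Mki67, the proliferation antigen Ki-67, had 4986 and 5998 normalised reads in the tumours and 3502 and 3524 in the wild-type nodes (log2 fold change 0.64). Top2a and Ccnb1 were 0.42 and 0.75 higher, and Pttg1 and Stmn1, which also act in mitosis, had log2 fold changes of -0.75 and -0.68. Cdkn1a, the inhibitor p21, fell by 0.94 on the log2 scale. No gene of 32 for DNA repair was listed.

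Of 56 genes mutated in lymphoma 11 were listed (19.6%, against 7.38% of all genes tested), 4 higher and 7 lower. The higher were Prdm1, Irf4, Tnfrsf14 and Rb1. Foxo1, a factor of B cell identity and survival control, had 3750 and 3426 normalised reads in the tumours and 5752 and 5966 in the wild-type nodes. Socs1, an inhibitor of JAK signalling, had 319 and 318 in the tumours and 682 and 664 in the wild-type nodes. Bcl6, Klf2, Id3, Ccnd2 and Cdkn2b were lower too. Of 36 cell death genes 4 were listed (11.1%, near the 7.38% of all genes tested), all higher, among them Casp4 at 0.92, Casp1 at 0.62 and Bcl2l11, the killer protein Bim, at 0.58 on the log2 scale.

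Autophagy genes were listed about as often as any other, 3 of 49, or 6.1% against 7.38% of all genes tested. Gabarap, which coats autophagosomes, had 3774 and 3143 normalised reads in the tumours and 5172 and 4638 in the wild-type nodes. Atg14, a subunit of the Beclin 1 lipid kinase complex, had 623 and 590 in the tumours and 362 and 391 in the wild-type nodes. Calcoco1, an autophagy receptor, was 0.51 higher on the log2 scale. Of 55 lysosome genes 12 were listed (21.8%, against the same 7.38%), 4 higher and 8 lower.

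Of 58 interferon-stimulated genes 3 were listed (5.2%), fewer than the 7.38% of all genes tested, and all 3 were GTPases of the IRG family and higher. Iigp1 had 2399 and 2646 normalised reads in the tumours and 1038 and 1271 in the wild-type nodes, and Igtp and Tgtp2 were 0.82 and 0.97 higher on the log2 scale. The interferon-inducible PYHIN genes, a separate list described further below, divided into 5 lower and 2 higher. The matricellular genes Ctgf and Cyr61, known targets of the YAP pathway, had 367 and 328, and 722 and 646, in the tumours, against 27.8 and 50.9, and 160 and 196, in the wild-type nodes. Of 38 immediate-early genes 10 were listed, 4 higher, namely these and Dusp1 and Rhob at 0.80 and 0.50, and 6 lower, with Klf4 at -1.25 and Nr4a3 at -1.01.

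At the ends of the list stood genes with no reads in one tissue. There were 34 genes with 0 reads in both wild-type libraries and 9 with 0 in both tumour libraries. Named here after their values were seen, Ccnb1ip1 had 64 and 45 reads in the tumours and 0 in the wild-type nodes, at least 32.2-fold higher against the floor of 3 reads over the group. Ces1f, a carboxylesterase of liver and fat, had 0 in the tumours and 88 and 42 in the wild-type nodes, at least 48.3-fold lower. Folds against so few reads cover counting error only.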

How the data were processed

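Polyadenylated RNA of 2 lymphoma libraries (Beclin 2 KO) and 2 lymph node libraries (wild type) was compared, with 2 lymph node libraries of Beclin 2 KO mice beside them. The signal of each gene in the deposited tables was 1 mean normalised read count per group, made by the authors. Log2 ratios in the authors' deposited table were recomputed from the means, with differences of at most 5e-05. Each p-value, raw and adjusted, was taken from the authors' deposited table, where the largest adjusted p was 0.049854. CASAVA 1.8, DESeq without a version and the build GRCm38 (mm10) are named in the submitters' processing notes; the alignment, counting, strandedness and annotation are not given in the sources used here. The design allowed for counts of all genes or for tables of called genes, and the second case applied, so no test was added: a model on genes selected for differing has no valid null.

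Whole reads of both libraries were solved from each mean, which was tested on simulated data. Genes listed in 2 tables gave the same reads. How many genes had been tested followed from each p, its rank and its adjusted value. Positions and symbols came from GENCODE M21, in which 1623 of 1630 genes were found, and promoters from RefSeq on GRCm38.p6. The alternatives were stricter thresholds, minimum levels, added constants of 1 and 10, and leaving out each library. Python 3.11.15, numpy 2.4.6, pandas 2.3.3, scipy 1.17.1 and matplotlib 3.10.9 were used.

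The comparison, the gene lists and the named genes were chosen with earlier results of these data known. Named genes were Becn2 and Becn1; the 12 largest rises and falls with at least 50 normalised reads in the higher group, without receptor segments and predicted genes; the 5 smallest adjusted p per direction; per list with 3 or more listed members the 6 of smallest adjusted p and 2 of the rarer direction; 4 receptor segments per direction; the same genes in other tables; and the 10 whose tumour libraries differed most. Which were printed was decided after their values were seen, and further list members were named then. Some listed genes are not reported here.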

Additional observations from a re-analysis of the deposited data

How the results depend on the processing

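Of 737 higher and 893 lower genes, 409 and 574 were left at an adjusted p under 0.01, and 387 and 384 at a fold of at least 2. With each library left out in turn the counts in each direction stayed at 737 and 893, which the lack of overlap in all 1630 genes fixes and which is no sign of stability, and the number at least 2-fold apart ran from 358 to 409 higher and from 366 to 425 lower. Lists with all members in one direction numbered 16 of 53, and between 12 and 18 under the other settings. Of 51 lists with more members in one direction than the other, 38 kept that direction at an adjusted p under 0.01, at a fold of at least 2 and at a level of at least 50, while the rest came to a tie or turned at 1 or more of these. Of 1610 values of 271 named genes under these settings, 0 reversed, which was fixed in advance and is no sign of stability either. Neither leaving out a library of groups that do not overlap nor adding a constant to both means can change a direction. The size of the change was not fixed, and 53 genes moved by over 1.5-fold when a library was left out. No paired analysis was possible because the deposited columns are group means that carry no replicate number. With 2 libraries per group and only called genes, differences smaller than the authors' test could call were not detectable.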

Other observations

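Several of the largest differences had values in the lymph nodes of Beclin 2 KO mice close to those of the lymphoma, in tables that were normalised separately and share libraries with the comparison above. Lyz2, the lysozyme of macrophages, had 121 and 171 normalised reads in the tumours and 31663 and 31079 in the wild-type nodes, and 102 and 497 in the knockout nodes. Lyz1, its neighbour and near-identical copy, had 15438 and 18585 in the tumours, 4743 and 3750 in the wild-type nodes, and 19372 and 18264 in the knockout nodes. Reads of these copies can be taken for one another, so their separate levels are uncertain. Serinc3, a membrane protein, had 4672 and 4419 in the tumours, 24798 and 23532 in the wild-type nodes, and 5305 and 5238 in the knockout nodes. BC147527 averaged 22.1 in the tumours, 433 in the wild-type nodes, and 11.6 in the knockout nodes, each the authors' group mean.

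The PYHIN genes, a cluster on chromosome 1 of interferon-inducible DNA sensors, had 7 of 13 members listed (53.8%, against 7.38% of all genes tested), 5 lower and 2 higher. Ifi202b had 211 and 348 reads in the tumours and 0 and 4 in the wild-type nodes, a log2 fold change of 6.93, 5.93 without wild-type A, 7.26 without tumour A, and without a finite value when wild-type B, which held the only wild-type reads, was left out. In knockout over wild-type nodes, normalised separately, Ifi202b was 7.14 higher on the log2 scale. Pydc4 had 68.3 and 206 normalised reads in the tumours, 1518 and 3157 in the wild-type nodes, and 58.3 and 59.5 in the knockout nodes, with a log2 fold change of -4.09 that ran from -5.10 to -3.47 with 1 library left out. Pyhin1 had 2232 and 3079 in the tumours, 6549 and 7533 in the wild-type nodes, and 1571 and 1831 in the knockout nodes. These members are close copies, and reads may be divided between them.

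The tumour libraries also stood apart in Apobec3, a cytidine deaminase that restricts retroviruses, which had 4416 and 839 normalised reads in tumour A and B and 7743 and 7782 in wild-type A and B. Its log2 fold change was -1.56, -3.21 without tumour A and -0.81 without tumour B. In knockout over wild-type nodes, normalised separately, Apobec3 was lower too, with a log2 fold change of -0.95.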
